A study of Mus musculus with 15 samples.

Results

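Genes of immature T cells were followed in RNA of CD8-selected lymph node cells from mice. The set holds 7 genes of the CD4+CD8+ double-positive thymocyte, Rag1, Rag2, Dntt, Ptcra, Aqp11, Arpp21 and Cd4, out of 21025 gene entries in each count file. They were chosen by symbol, and chosen because their counts in these same libraries had already been seen to differ, so their levels are given as a description and without a test. The series holds 15 libraries of polyadenylated RNA, 5 from each of 3 genotypes: C57BL/6N (written WT), cS5Alo and cS5Ahi. All mice were untreated and 15 weeks old, and CD8 cells were taken from lymph node suspensions by magnetic positive selection. Each WT library pooled the lymph nodes of 2 to 3 mice. For the other genotypes the labels do not say how many mice gave a library, so the spread between libraries may be partly technical. As known of the study, though absent from its labels, the lines cS5Alo and cS5Ahi carry a constitutively active STAT5A, a transcription factor of cytokine signalling, at a low or a high dose. The sources used here do not name the promoter of that transgene.

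Library depth ran from 12177642 to 33948416 reads in genes. Reads outside annotated genes made up 36.8 to 40.8% in WT 3, WT 4 and cS5Ahi 4 and 23.0 to 30.2% in the other 12 libraries. The 5 cS5Ahi libraries were sequenced on 1 flow cell, and WT and cS5Alo on another, where WT 1 and WT 2 shared lane 2 and WT 3, WT 4, WT 5 and the 5 cS5Alo libraries shared lane 3. For cS5Ahi, then, genotype and flow cell cannot be told apart. The description of cS5Ahi 1 names cS5Alo while its title and genotype say cS5Ahi. Its Stat5a level lay with cS5Ahi, in which Stat5a stood at 404 to 635 CPM (reads per 1e6 reads of the scaled library size), above the cS5Alo range of 100.3 to 117 CPM and the WT range of 71.4 to 95.7 CPM. Cd8a, which encodes a chain of the selected coreceptor, stood at 2584 CPM in WT 5 and 2159 to 2454 CPM in WT 1 to 4. WT 5 is the library that stands apart in what follows, and results that rest on it are given with and without it.

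T cells mature in the thymus, where progenitors without CD4 and CD8 first assemble the T cell receptor beta chain and then pass through a double-positive stage that carries both coreceptors. At that stage the RAG1 and RAG2 recombinase is made a further time to assemble the alpha chain. Cells that pass selection keep only CD4 or only CD8, shut off the recombinase genes and leave for the periphery. A lymph node cell with CD8 on its surface is therefore usually a mature T cell, or a dendritic cell of the subset that carries CD8 alpha.

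Rag1 and Rag2 encode the subunits of the recombinase that cuts antigen receptor gene segments. Dntt encodes terminal deoxynucleotidyl transferase, which adds bases without a template at the joined ends. Ptcra encodes the pre-T alpha chain, which pairs with the new beta chain before an alpha chain exists. Cd4 encodes the coreceptor that binds MHC class II. Arpp21 encodes an RNA-binding phosphoprotein that is abundant in immature thymocytes and in neurons, and Aqp11 a channel of the aquaporin family.

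The sequence just before the transcription start is shown for 4 of these genes, because they were high together in a single library, and because E2A and HEB are known regulators of Rag1 and Ptcra in thymocytes. Bases come from RefSeq's table for GRCm38.p6, which is not the mm9 build of the count files, and cover the 250 bases before the start on the strand of the gene. An entry was found for 6 of the 7 genes, and Arpp21 had 9 entries. Capitals mark the letters searched on both strands: the E-box forms CAGGTG and CAGCTG, read by E2A and HEB, the RUNX letters TGTGGT, and the GATA letters AGATAA.
Rag1, chr2:101649533-101649782, minus strand: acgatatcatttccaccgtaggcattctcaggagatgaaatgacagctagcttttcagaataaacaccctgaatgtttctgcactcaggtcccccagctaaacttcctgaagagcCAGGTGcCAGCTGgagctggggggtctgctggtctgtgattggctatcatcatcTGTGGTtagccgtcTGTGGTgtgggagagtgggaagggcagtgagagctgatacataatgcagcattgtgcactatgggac
Rag2, chr2:101624462-101624711, plus strand: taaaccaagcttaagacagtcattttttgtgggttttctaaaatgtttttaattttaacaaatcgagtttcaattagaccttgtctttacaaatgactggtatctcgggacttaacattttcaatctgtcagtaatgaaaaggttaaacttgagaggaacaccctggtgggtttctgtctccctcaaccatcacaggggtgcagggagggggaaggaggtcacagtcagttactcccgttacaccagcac
Ptcra, chr17:46763713-46763962, minus strand: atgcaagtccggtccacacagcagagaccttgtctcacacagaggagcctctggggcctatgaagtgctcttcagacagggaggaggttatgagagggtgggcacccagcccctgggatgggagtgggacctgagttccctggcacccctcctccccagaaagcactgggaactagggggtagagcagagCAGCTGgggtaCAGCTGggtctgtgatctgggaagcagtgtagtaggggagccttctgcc
Dntt, chr19:41029025-41029274, plus strand: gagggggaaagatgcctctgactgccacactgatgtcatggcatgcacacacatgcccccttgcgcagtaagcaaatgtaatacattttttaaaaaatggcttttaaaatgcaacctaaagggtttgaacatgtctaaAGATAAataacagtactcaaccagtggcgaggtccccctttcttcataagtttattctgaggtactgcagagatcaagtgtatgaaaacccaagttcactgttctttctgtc

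In the Rag1 window CAGGTG began 135 bases and CAGCTG 128 bases before the start, and TGTGGT began at 81 and 67 bases. These matches do not overlap one another. Ptcra held CAGCTG at 60 and 49 bases, and Dntt held AGATAA at 112 bases. None of the 7 motifs searched was found in the windows of Rag2 and Aqp11. The searched letters CTTTGA (TCF1 and LEF1), TTCNNNGAA (the STAT5 site) and TATAAA were absent from the windows of Rag1, Rag2, Ptcra, Dntt and Aqp11. Of 32851 promoter entries, 17.2% held CAGGTG, 13% CAGCTG, 14% TGTGGT and 9.99% AGATAA, so single matches of this kind are common. For the other motifs the shares were 13.8% for CTTTGA, 7.02% for TTCNNNGAA and 12.4% for TATAAA.

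The recombinase genes were read almost entirely from 1 WT library. Rag1 had 8624 reads in WT 5, against 2, 0, 7 and 5 reads in WT 1 to 4. It had 4, 5, 7, 18 and 4 reads in cS5Alo 1 to 5 and 3, 3, 2, 2 and 0 reads in cS5Ahi 1 to 5. WT 5 thus held 99.3% of all Rag1 reads of the series, at 355 CPM, which was 396 times the level of the next library, cS5Alo 4, at 0.897 CPM. Rag2, its neighbour on chromosome 2, followed the same pattern at a lower level. It had 934 reads in WT 5 and 0, 0, 1 and 1 reads in WT 1 to 4. In cS5Alo 1 to 5 there were 0, 3, 1, 4 and 0 reads, and in cS5Ahi 1 to 5 there were 2, 0, 0, 1 and 0. At 38.5 CPM, Rag2 in WT 5 was 193 times as high as in cS5Alo 4, the next library at 0.199 CPM. Outside WT 5, 2 libraries had no Rag1 read and 7 had no Rag2 read, and a count of 0 allows up to 3 reads, or 0.197 CPM in WT 1.

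Dntt differed from the recombinase genes in having reads in every library. Its level was 7.30, 7.25, 6.78 and 14.4 CPM in WT 1 to 4 and 79.7 CPM in WT 5. It stood at 10.4, 6.21, 7.39, 10.4 and 11.5 CPM in cS5Alo 1 to 5 and at 7.79, 14.8, 16.0, 10 and 10.4 CPM in cS5Ahi 1 to 5. WT 5 lay 4.98 times above the highest other library, and the other 14 libraries overlapped between genotypes within 6.21 to 16.0 CPM. WT 5 held 38.1% of the Dntt reads of the series, a far smaller share than for Rag1.

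Ptcra had the lowest level of the set in WT 5. It had 81 reads in WT 5, or 3.34 CPM, against 1 to 9 reads in each of the other 14 libraries, or 0.0459 to 0.425 CPM. WT 5 was 7.86 times as high as the next library, cS5Alo 5, and the genotypes overlapped otherwise. The precision of the low libraries is that of fewer than 10 reads each.

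Cd4 was measured in every library despite selection for CD8. Its level was 7.43, 1.08, 7.34 and 12.5 CPM in WT 1 to 4 and 84.7 CPM in WT 5. It stood at 5.28, 5.08, 3.97, 5.38 and 4.25 CPM in cS5Alo 1 to 5 and at 1.53, 4.19, 4.37, 2.73 and 1.09 CPM in cS5Ahi 1 to 5. WT 5 was 6.75 times as high as WT 4, the next library. Without WT 5 the WT libraries spanned the whole range of the other groups, with WT 2 lowest of all. There were 30.5 Cd8a reads per Cd4 read in WT 5 and 577 in the other libraries pooled. In bulk RNA, a change in the number of cells that carry a transcript and a change in its amount per cell cannot be told apart.

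Arpp21 had 1102 reads in WT 5, at 45.4 CPM, and 1 to 9 reads in each other library, so WT 5 was 91.9 times as high as the next one, WT 3, at 0.494 CPM. Aqp11 had 992 reads in WT 5, at 40.9 CPM, and 2 to 25 reads elsewhere, with WT 3 next at 1.76 CPM, 23.2 times lower. Both genes overlapped between the genotypes over the other 14 libraries. WT 5 held 95.2% of the Arpp21 reads and 85.0% of the Aqp11 reads of the series.

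**Figure D1:**
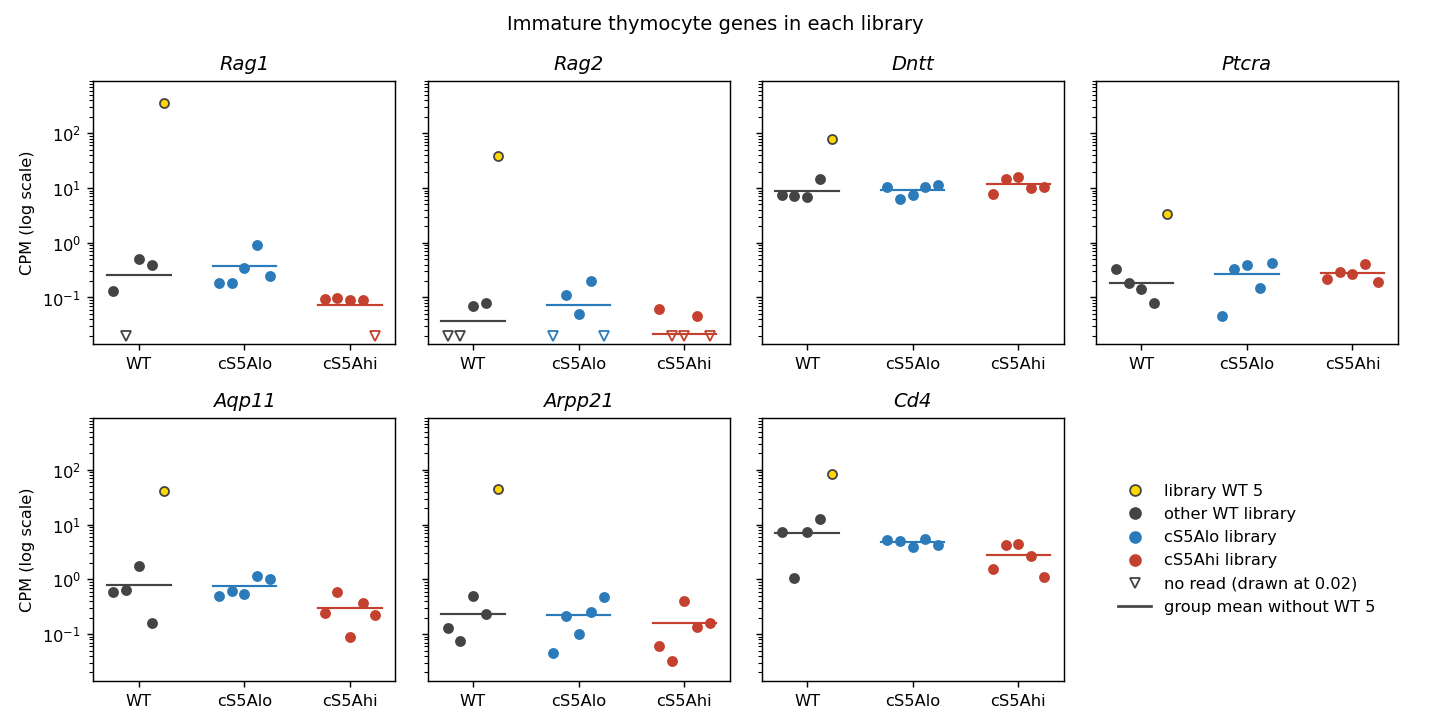
Level of each of the 7 genes in each library, in CPM on a log scale, by genotype; each point is 1 library, WT 5 is drawn in yellow, open triangles are libraries without a read, and lines are group means without WT 5. WT 5 lies above the other 14 libraries in all 7 panels, from 4.98 times the next library for Dntt to 396 times for Rag1.

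Put together, the 7 genes took 15722 reads in WT 5, 0.0680% of its reads in genes, and 242 to 610 reads in each of the other libraries, or 0.000924 to 0.00289%. Per kilobase of merged exon, the order of levels in WT 5 was Rag1 (53.8 CPM per kilobase), Dntt (37.4), Cd4 (27.2), Rag2 (11.2), Aqp11 (10.9), Arpp21 (5.00) and Ptcra (2.60). As WT 5 is a single library, these neighbours have no replicate spread. In WT 1 to 4 the mean order per kilobase began with Dntt (4.20) and Cd4 (2.28), and the other 5 genes had at most 0.211. Rag1 was thus first of the 7 in WT 5, and near the end of the order in the other WT libraries at 0.0387 CPM per kilobase.

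The proportions among the genes also differed between WT 5 and the rest. There were 0.224 Dntt reads for each Rag1 read in WT 5, against 50.6 in the other 14 libraries pooled. For Cd4 the values were 0.238 and 20.7 reads per Rag1 read. Rag1 had 9.23 reads for each Rag2 read in WT 5 and 4.77 in the others, the latter from 62 and 13 reads. Across all 15 libraries the 21 pairs of genes had Pearson correlations of log2 CPM between 0.57 and 0.97, with a median of 0.81. Without WT 5 the same pairs ran from -0.49 to 0.75, with a median of 0.19. The 15 points share the TMM scaling, and the wide correlation over 15 rests on that 1 library.

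Outside WT 5 the group levels were low or overlapped. Rag1 stood at 0.256 ± 0.229 CPM in the 4 WT libraries without WT 5 (SD, n = 4). It had 0.371 ± 0.302 CPM in cS5Alo and 0.0741 ± 0.0416 CPM in cS5Ahi (n = 5 each). Dntt had 8.94 ± 3.68, 9.19 ± 2.27 and 11.8 ± 3.46 CPM in the same order. For Cd4 the values were 7.10 ± 4.69, 4.79 ± 0.641 and 2.78 ± 1.49 CPM, and for Aqp11 0.788 ± 0.686, 0.770 ± 0.297 and 0.303 ± 0.188 CPM. Arpp21 and Ptcra stayed under 0.5 CPM in all 14 libraries. With WT 5 included, the WT means became 71.3 ± 159 CPM for Rag1, 23.1 ± 31.8 CPM for Dntt and 22.6 ± 34.9 CPM for Cd4, with an SD above the mean for each of the 7 genes.

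Rag1 also left a small trace that followed the sequencing lane. The 7 other libraries in the lane of WT 5 (WT 3, WT 4 and cS5Alo 1 to 5) had 0.183 to 0.897 CPM of Rag1, from 50 reads together. The 7 libraries of the other lanes (WT 1, WT 2 and cS5Ahi 1 to 5) had 0 to 0.132 CPM, from 12 reads. The ranges did not overlap, which was so in this direction for 27 of 18030 genes, or 0.150%. The 50 reads equal 0.580% of the Rag1 reads of WT 5. No other member separated the lanes. Neither did the summed level of 14 further genes at least 10 times as high in WT 5 as in any other library. That sum was 2.49 to 5.81 CPM in the lane and 0.767 to 6.60 CPM outside it. In WT 5 it was 183 CPM, less than Rag1 alone at 355 CPM. A trace as small as that of Rag1, at most 0.897 CPM, could lie hidden in that spread, so the sum cannot show whether there was one. The part of the lane in the Rag1 reads was not tested. The lane holds all cS5Alo and no cS5Ahi library, so lane and genotype cannot be told apart for those lines.

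How far WT 5 differed beyond the 7 genes was read from every gene entry. WT 5 had at least 1 CPM for 10905 genes, and 38 of them, or 0.348%, were at least 4 times as high there as in any other library, all 7 members included. At 10 times or more there were 18 genes (0.165%), among them Rag1, Rag2, Arpp21 and Aqp11. For the other libraries the same counts ran from 0 to 102 at 4 times and from 0 to 24 at 10 times, highest in WT 4 for both, so a count of such genes does not set WT 5 apart. Among the genes that stood with the members in WT 5, Endou was at 32.3 CPM against at most 0.847 elsewhere, Tdrd5 at 15.3 against 0.546, Dhrs3, a retinal reductase gene, at 20.5 against 1.24, and Ptprf, a receptor phosphatase gene, at 13.2 against 0.728 CPM. P2rx1, an ATP-gated channel gene, had 9.15 CPM against 0.349, and Notch3, a Notch receptor gene of early thymocytes, 2.88 CPM against 0.494.

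**Figure D2:**
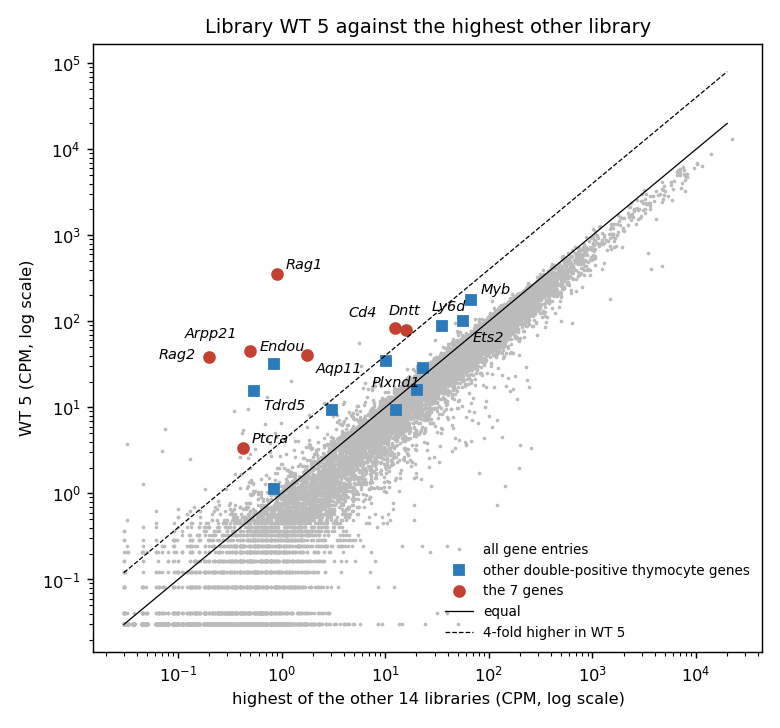
Level of every gene entry in WT 5 against its highest level in the other 14 libraries, both in CPM on log scales, with values under 0.03 drawn at 0.03; red points are the 7 genes, blue squares the 11 other double-positive thymocyte genes, and the dashed line marks a level 4 times as high in WT 5. All 7 genes and 2 of the 11 squares (Endou and Tdrd5) lie above the dashed line.

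A list of 11 other genes of double-positive thymocytes was highest in WT 5 for 9 of its members. The share of all genes that were highest in WT 5 is not given here, so nothing is read from that number about the list. Its summed level was 516 CPM in WT 5, while WT 1 to 4 had 133 to 184 CPM, cS5Alo 137 to 162 CPM and cS5Ahi 71.4 to 119.6 CPM. Myb, a transcription factor gene of immature blood cells, stood at 179 CPM in WT 5 and at most 68.0 CPM elsewhere. Ly6d, a surface protein gene of immature lymphocytes, had 89.3 CPM against at most 35.7, and Plxnd1, a semaphorin receptor gene that guides thymocyte migration, 34.3 against 10.2 CPM. Ets2, a transcription factor gene, had 102 against 56.6 CPM. Mns1 and Cd1d1 were the 2 that were not highest in WT 5. Cd1d1, whose product presents lipids to natural killer T cells, had 15.9 CPM in WT 5 and 12.2 to 17.3 CPM in WT 1 to 4.

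By summed level, genes of the earlier double-negative stage stood less far apart in WT 5. Their sum was 1.23 times the mean of WT 1 to 4, against 3.26 times for the double-positive list. Apart from Notch3, the single other list member highest in WT 5 was Notch1, at 209 CPM against at most 166 CPM. The share of all genes highest in WT 5 is not given, so nothing is read from that number. Kit, the stem cell factor receptor gene, had 3.34 CPM in WT 5, below the 4.56 to 10.9 CPM of WT 1 to 4, and Hes1, a Notch target, 0.0824 CPM against 0.395 to 3.49 CPM. The summed level of the 12 genes was 419 CPM in WT 5 and 325 to 355 CPM in WT 1 to 4.

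Among 12 measured genes that join the ends cut by the recombinase, 3 were highest in WT 5. Without the share of all genes highest there, nothing is read about the lists from this number or the next. Lig4, the DNA ligase of end joining, stood at 17.8 CPM in WT 5 and at most 9.08 CPM elsewhere. Xrcc6, which encodes the Ku70 end-binding protein, had 73.9 against 50.3 CPM, and Nhej1, a ligase cofactor gene, 3.75 against 2.96 CPM. Over the list WT 5 was not apart, at 627 CPM summed against 525 to 650 CPM in WT 1 to 4. Of 15 regulators of the Rag, Cd4 and Cd8 genes, 5 were highest in WT 5, among them Id3, an inhibitor of E proteins induced by receptor signals, at 68.7 CPM against at most 54.6 CPM, and Satb1, a chromatin organiser gene, at 945 against 863 CPM. Zbtb7b, which directs cells to the CD4 fate, had 5.85 CPM in WT 5 and at most 5.40 CPM elsewhere.

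Genes of the thymic epithelium were low in WT 5 or within the range of the other libraries. No read was found there of Foxn1, the master regulator of thymic epithelium, or of Krt5, Krt8, Tbata, Pax1, Pax9 and Trp63, where a count of 0 allows up to 0.124 CPM. Psmb11, the thymoproteasome subunit gene of the cortex, had 0.412 CPM in WT 5, below the highest other library at 0.818 CPM. Prss16, the thymus-specific protease gene, had 0.618 CPM against up to 0.949, and Aire, the regulator of medullary self-antigen expression, 0.577 against 0.777 CPM. Ccl25, a chemokine gene of thymus and gut, had 46 reads or 1.90 CPM in WT 5 and 2.37 to 4.37 CPM in WT 1 to 4. Epcam, an epithelial adhesion gene, also had 46 reads in WT 5, within the 0.706 to 2.43 CPM of WT 1 to 4. Krt14 and Dll4 had 1 read each. The 15 genes of the list summed to 67.2 CPM in WT 5 and 57.3 to 78.5 CPM in WT 1 to 4, of which Ly75, also made by dendritic cells, gave 61.7 CPM in WT 5. Only 4 of the 15 had enough reads to be tested between genotypes. Because the cells had been selected for CD8, low epithelial levels cannot show which tissue was taken. The part of thymus tissue in WT 5 was not tested.

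Other cells that can carry these transcripts were followed by their own markers. B cell precursors also make Rag1, Rag2 and Dntt, and their surrogate light chain genes stood at 0 reads (Igll1, Vpreb2) or 0.124 CPM (Vpreb1) in WT 5, with at most 0.897 CPM of Vpreb1 in the other libraries. The precursor list summed to 190 CPM in WT 5 and 46.5 to 71.4 CPM in WT 1 to 4, and 179 CPM of the former was Myb. Mature B cell genes summed to 249 CPM in WT 5, within the 107 to 356 CPM of WT 1 to 4, and genes of dendritic cells to 631 CPM, within 342 to 1216 CPM. Plasmacytoid dendritic cells also carry Ptcra, Cd4 and Ly6d. Their list summed to 179 CPM in WT 5 and 76.4 to 173 CPM in WT 1 to 4. Of the sum in WT 5, 89.3 CPM was Ly6d, which is also in the list of double-positive thymocyte genes. The defining gene Siglech stood at 4.45 CPM in WT 5 and 4.04 to 12 CPM in WT 1 to 4.

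Helper T cell genes gave no matching rise. The 9 genes summed to 577 CPM in WT 5 and 554 to 732 CPM in WT 1 to 4. Cd40lg, a helper cell ligand gene, had 1.61 CPM in WT 5, within 0.0794 to 2.97 CPM, whereas Bcl6, a repressor of follicular helper and germinal centre cells that is also made by double-positive thymocytes, had 95 CPM against at most 47.2 CPM. Regulatory T cell genes summed to 94.2 CPM in WT 5 and 78.8 to 102 CPM in WT 1 to 4, with Foxp3, which defines that lineage, at 6.10 and 2.38 to 7.70 CPM. CD8 T cell genes summed to 7852 CPM against 6351 to 7887 CPM. Macrophage genes, at 38.9 CPM in WT 5 and 6.09 to 85.7 CPM in WT 1 to 4, also overlapped. The salivary gland list lay lower in WT 5, at 31.2 CPM against 48.4 to 765 CPM. Vessel genes (203 CPM against 217 to 357) were lower as well, and red blood cell genes (9.68 against 1.57 to 30.0 CPM) overlapped. Cell cycle genes summed to 722 CPM in WT 5, above the 580 to 644 CPM of WT 1 to 4 and within the 529 to 807 CPM of cS5Alo. The part of these cells in the levels of the 7 genes was not tested.

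Genes whose level followed the members most closely over the 15 libraries were picked by Pearson correlation of log2 CPM with the mean of the members other than Cd4. Kremen1, a gene of the Wnt pathway, came first at 0.86, followed by Ptprf at 0.86 and Cux1 and Nebl at 0.84 each. Mad1l1, Dhrs3 and Tube1 had 0.83 each and Wdr78 0.81. Eif4e3, Mprip and Tspan2 had 0.78 to 0.79. Cd4 was followed most closely by Slc7a11, the cystine transporter gene, at 0.90, Bnip3 and Dhrs3 at 0.88, Sema7a and Ly6d at 0.86, Jup and Plxnd1 at 0.85 and F13a1 at 0.84. After the genotype means were subtracted, Ptprf led the first list at 0.92, with Tube1 and E2f2 at 0.90, and Slc7a11 (0.90), Ly6d (0.88) and Cd24a (0.87) led the Cd4 list. These correlations are a description over libraries that share 1 extreme point, WT 5.

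Without WT 5, other genes lay closest to Cd4 and Dntt over the remaining 14 libraries, a comparison added after their values were seen. For Cd4 they were Papss2 at 0.92, and Lat2, Cybb, Tifa, Lyz1, Jcad and Carmil1 at 0.90 to 0.91. Cybb encodes an oxidase subunit of myeloid cells, and Lyz1 encodes a lysozyme. For Dntt the closest were Cdca8 at 0.81, Mxd3 at 0.79, Upf3a and Plk1 at 0.77, Gvin1 and Mybl2 at 0.76 and Brip1 at 0.75.

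The effect of WT 5 on the comparison of cS5Ahi with WT was then followed for the members. An edgeR quasi-likelihood fit on all 15 libraries tested 11979 genes after a filter on low counts. Of the 7 members 3 passed that filter (Dntt, Aqp11 and Cd4), and Rag1, Rag2, Ptcra and Arpp21 did not, since 14 of 15 libraries had almost no reads. Fold changes of those 4 come from the same fit with the members kept, and are log2 values ± SE. The SE of an edgeR fold change was derived from it and its F statistic, as the size of the fold change over the square root of F. Rag1 stood at -9.85 ± 2.66 in cS5Ahi against WT with WT 5 and at -1.61 ± 0.97 without it. Arpp21 went from -5.93 ± 1.72 to -0.53 ± 0.85, the latter from 14 reads in WT 1 to 4 and 20 in cS5Ahi. Aqp11 went from -4.84 ± 1.28 to -1.35 ± 0.61. Rag2 gets no fold change, because it had 3 reads in all cS5Ahi libraries together and 2 reads in WT 1 to 4.

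Cd4, the coreceptor gene, went from -3.04 ± 0.88 to -1.34 ± 0.49, the latter being the largest difference relative to its error among the members without WT 5. Some dendritic cells can carry Cd4 too, and 9 of the 12 genes of their list were called lower in cS5Ahi by edgeR (7.25% of all genes were). Itgax at 0.05 (adjusted p = 0.944), Xcr1 at -0.95 (adjusted p = 0.0723) and Clec9a at -1.02 (adjusted p = 0.11) were not called. The list summed to 138 to 335 CPM in cS5Ahi against 342 to 1216 CPM in the 5 WT libraries. Much of that sum was Cd74 and H2-Aa, with WT means of 364 and 252 CPM, so it does not single out dendritic cells with Cd4. Of the 12 B cell genes 9 were called lower as well, with sums of 86.0 to 165 and 107 to 356 CPM. Without WT 5 the counts were 10 and 9 of 12, where 7.86% of all genes were called lower. Their part in the Cd4 difference was not tested. Dntt changed sign, from -0.98 ± 0.61 to 0.41 ± 0.26, and so did Ptcra, from -1.63 ± 0.81 to 0.53 ± 0.68. The last value rests on 13 reads in WT 1 to 4 and 37 in cS5Ahi. The sign of the difference for Dntt and Ptcra was thus set by 1 WT library.

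At a Benjamini-Hochberg adjusted p under 0.05 the fit called 2 of the 3 members tested lower in cS5Ahi (Aqp11 and Cd4), where 14.1% of all genes were called and 7.25% were called lower. Without WT 5 none of the 3 was called, while 15.8% of all genes were, 7.86% as lower. With no filter on low counts 2 of the 7 were called (Aqp11 and Rag1, against 8.56% of all genes), and none of 7 without WT 5 (9.98%). DESeq2 called Cd4 and gave Aqp11 no adjusted p (17.8% of all genes called), and limma voom with sample weights called no member (11.7%). Without WT 5, DESeq2 still called Cd4, at -1.36 (adjusted p = 0.0226, with 19.6% of all genes called). Because the members were picked from the same libraries, nothing is read from these counts about the members.

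Against WT, cS5Alo gave the same picture. Rag1 was at -7.61 ± 2.28 on the log2 scale with WT 5 and at 0.65 ± 0.86 without it. Aqp11 moved from -3.54 ± 1.19 to -0.04 ± 0.60, Arpp21 from -5.44 ± 1.69 to -0.05 ± 0.86 and Ptcra from -1.66 ± 0.83 to 0.50 ± 0.69. For Dntt the values were -1.34 ± 0.62 and 0.05 ± 0.26, and for Cd4 -2.25 ± 0.85 and -0.55 ± 0.48. Without WT 5 the difference was smaller than its SE for each of these genes but Cd4. By edgeR none of the 3 members tested was called with or without it, where 0% of all genes were called, and DESeq2 (0.743%) and limma voom (0%) on all 15 libraries called none either. Cd4 was called in 3 of 42 alternatives, each of which leaves out a WT library. Because the members were picked from the same libraries, nothing is read from these calls about Cd4. DESeq2 without WT 2 gave -2.55 (adjusted p = 0.0186, 2.67% of all genes called). The edgeR fit within the shared lane gave -3.35 without WT 3 (adjusted p = 0.0388, 0.074%) and -1.04 without WT 5 (adjusted p = 0.0384, 6.02%). Both comparisons share the WT libraries, so the pair is not independent.

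**Figure D3:**
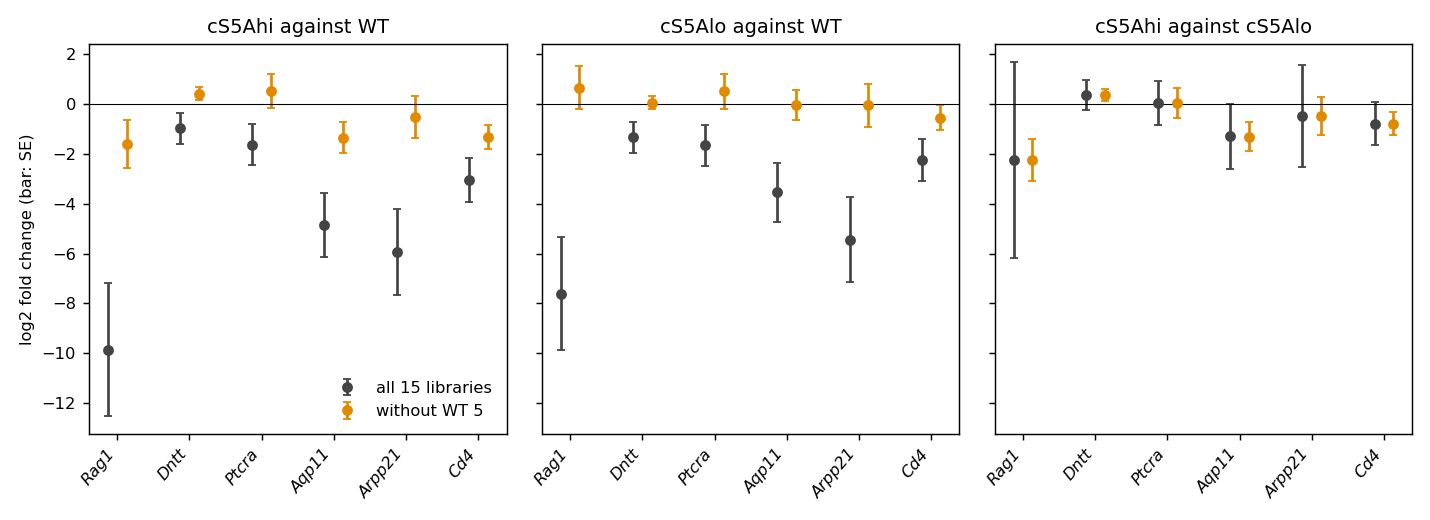
Log2 fold change of 6 of the genes in 3 comparisons, over all 15 libraries (grey) and without WT 5 (orange). Bars are the SE derived from the F statistic of the edgeR fit. Rag2 is left out because it had too few reads outside WT 5. Against WT the grey points lie below 0 for all 6 genes, and the orange ones lie nearer to 0 or above it. The comparison of cS5Ahi with cS5Alo keeps its values and its bars shorten.

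The comparison of cS5Ahi with cS5Alo holds no WT library, and its fold changes moved little when WT 5 left the fit. Aqp11 stood at -1.30 ± 1.31 with WT 5 in the fit and -1.31 ± 0.58 without it, and Cd4 at -0.80 ± 0.86 and -0.79 ± 0.46. Dntt had 0.36 ± 0.62 and 0.36 ± 0.24. The estimates were alike and the SE was smaller without WT 5, since all groups share 1 estimate of the spread. Rag1, at -2.24 ± 3.93 and -2.25 ± 0.85, rests on 10 reads in cS5Ahi and 38 in cS5Alo, and cS5Alo lay wholly in the lane of WT 5. None of the 3 members tested was called in this comparison, with WT 5 (8.64% of all genes called) or without it (9.63%).

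Related genes were also counted in the comparison of cS5Ahi with WT, from lists chosen with earlier results of these data known. Of the 11 other double-positive thymocyte genes 8 were tested and 6 were called lower (7.25% of all genes), with a median log2 fold change of -1.73 against 0.00 over all genes tested. Without WT 5 there were 4 called lower (7.86% of all genes), and the median was -1.05. Those 4 were Cd24a, which encodes the heat-stable antigen, at -2.13 (edgeR adjusted p = 9.15e-05), Ly6d at -2.43 (adjusted p = 0.000864), Cd1d1 at -0.74 (adjusted p = 0.00243) and Sox4, a transcription factor gene, at -1.90 (adjusted p = 0.0364). Cd24a and Ly6d are also carried by B cells, whose list was lower in cS5Ahi as given above. Plxnd1 went from -2.41 to -1.36 and was no longer called (adjusted p = 0.0242 and 0.0900), and Ets2 went from -0.79 to -0.45 (adjusted p = 0.0360 and 0.0987).

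Of 9 double-negative stage genes tested, 6 were called lower in cS5Ahi and 1 higher, where 14.1% of all genes were called and 7.25% were called lower. Without WT 5 the counts were 5 and 1, where 15.8% of all genes were called and 7.86% were called lower. The median log2 fold change was -1.80 with WT 5 and -1.97 without it. Kit fell by 1.80 ± 0.32 on the log2 scale (adjusted p = 0.000659), Spib, a gene of B cells and plasmacytoid dendritic cells as well, fell by 2.24 ± 0.39 (adjusted p = 0.000595), and Bcl11a, also a B cell gene, fell by 1.94 ± 0.35 (adjusted p = 0.00073). Nrarp, a feedback inhibitor of Notch, rose by 1.92 ± 0.26 (adjusted p = 4.42e-05). Of 15 genes kept from the thymocyte into the mature T cell, 4 fell (Ccr9, Lef1, Tespa1 and Tox) and 1 rose (Bcl2l1), with a median of -0.18. The shares of all genes were again 14.1% called and 7.25% called lower. Ccr9, the receptor for a chemokine of thymus and gut, was at -2.04 ± 0.17, and at -1.95 without WT 5. In the next 3 lists, 2 of 12, 3 of 15 and 1 of 11 genes were called, near the 14.1% of all genes, so nothing is read from them about the lists. Of the 12 end-joining genes, with a median of 0.05, Dclre1c, the Artemis nuclease gene, fell by 0.58 ± 0.13, and Hmgb2, a chromatin protein gene, rose by 0.51 ± 0.14. Of the 15 regulators, with a median of -0.15, Id2, an E protein inhibitor, and Gata3 rose by 0.64 ± 0.15 and 0.51 ± 0.15, and Tox, a factor of CD4 lineage development, fell by 0.88 ± 0.16. In the pre-TCR signalling list 1 of 11 genes, the kinase gene Fyn, rose by 0.35 ± 0.11 (adjusted p = 0.0426). Its fold was about as large without WT 5, at 0.33 (adjusted p = 0.0694), and the call was lost in 26 of 39 alternatives, over which the fold ran from 0.26 to 0.42. In cS5Alo against WT edgeR called no gene of these lists.

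Over all genes, the edgeR comparison of cS5Ahi with WT gave 1692 called genes, 824 higher and 868 lower. Without WT 5 there were 1905 of 12020, of which 1516 were shared, 176 of the 1692 were not called again or not tested, and 389 were called only there. Leaving out WT 1, 2, 3 or 4 gave 1639, 1787, 1477 and 1471. Fold changes moved by more than 1.5 times for 104 genes without WT 5, compared with 73, 23, 39 and 167 without WT 1 to 4. Among 173 genes tested both ways that lost their call without WT 5, Dhrs3 moved most of the 5 with the smallest adjusted p, from -4.58 (adjusted p = 0.0157) to -1.18 (adjusted p = 0.288). The others were Tspan2, Zfyve28, Sema7a and Jup, and the genes that gained a call were led by Dock1, Memo1, Bpifb3, Srm and Gadd45gip1.

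In cS5Alo against WT, edgeR called no gene with or without WT 5, while 1356 and 1894 genes had an unadjusted p under 0.05. DESeq2 called 89 genes with all 15 libraries and 254 without WT 5, and limma voom 0 and 423. Such a rise was not particular to WT 5. Without WT 1, 2, 3 or 4 DESeq2 called 108, 322, 41 and 16 genes, and limma voom 569, 1, 0 and 0. Within the shared lane alone the edgeR count was 0, and 735 without WT 5, which left WT 3 and WT 4, the libraries with the largest shares of reads outside genes, as the WT group. The common coefficient of biological variation was 0.234 over all libraries and 0.222 without WT 5, the lowest on leaving out any 1 WT library. It was little higher without WT 2 or without WT 4, at 0.225 each.

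**Figure D4:**
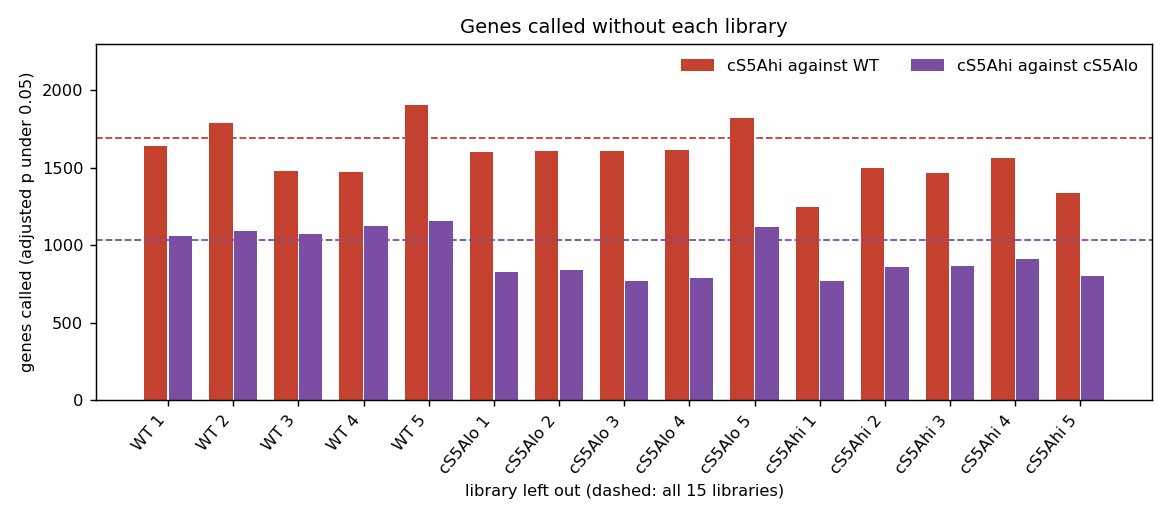
Number of genes called by edgeR (adjusted p under 0.05) when each library is left out in turn, for cS5Ahi against WT (red) and cS5Ahi against cS5Alo (purple); dashed lines are the counts over all 15 libraries, 1692 and 1035. Leaving out WT 5 gives the highest count in both comparisons, 1905 and 1157.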

How the data were processed

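Polyadenylated RNA of 15 samples was sequenced. Each deposited file lists unnormalised read counts per gene as the authors left them. The submitters' processing notes name cutadapt, TopHat 1.4.1, HTSeq 0.6.1p1 and the build mm9; the sources used here do not give the strand setting. The 5 summary entries per file stayed out of all totals. No 2 libraries of a group agreed within sampling noise.

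Members and gene lists were chosen with earlier results of these data known. Members were matched by symbol, and 20661 of the 21025 entries were matched to RefSeq by accession. Named genes are the members, each list's called genes (3 of smallest adjusted p where over 5 were called, up to 2 of highest level where none), the 12 and 8 genes most like the members, and the 5 leading genes of each change in calls; others singled out, such as those highest in WT 5, were chosen after their values were seen. Some genes that these rules gave are not reported here. Counts were filtered with filterByExpr (minimum count 10, total 15), scaled with TMM factors and fitted in edgeR 4.0.16 (R 4.3.3) by a robust quasi-likelihood model of genotype over all 15 libraries, with Benjamini-Hochberg adjustment. CPM are relative to the scaled library size, and log2 CPM used a prior count of 2. Merged exon lengths came from GENCODE M21. The fit was tested on simulated data. Alternatives were other scaling and filters, DESeq2 1.42.0, limma 3.58.1, a replicate block, the member level as covariate, and leaving out each library.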

Additional observations from a re-analysis of the deposited data

Results flagged for a closer look

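In groups of 5 libraries, the gap between the most extreme library and the next was set against the range of the group. In 9 of 21 groups of a gene and a genotype this share exceeded 0.71. The genes were chosen because they differed in these libraries and 7 of the 9 are the single library WT 5, so the number cannot be set against the 1 in 20 that chance gives for groups not chosen this way. WT 5 was the high extreme of WT for all 7 genes: Rag1 at 355 CPM, Rag2 at 38.5 CPM, Dntt at 79.7 CPM, Ptcra at 3.34 CPM, Aqp11 at 40.9 CPM, Arpp21 at 45.4 CPM and Cd4 at 84.7 CPM. Rag1 was also extreme in cS5Alo 4, at 0.897 CPM from 18 reads, and in cS5Ahi 5, at 0 CPM where the other cS5Ahi libraries had 2 or 3 reads.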

How the results depend on the processing

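For cS5Ahi against WT the count of called genes ran from 1247 to 1905 on leaving out 1 library, and limma voom without WT 4 gave 1119. With library size alone as scaling the split was 603 higher and 1177 lower of 1780. For cS5Ahi against cS5Alo the range was 769 to 1157. Limma voom gave 2546 there, and 2594, 2542, 2551, 2504 and 2543 without WT 1 to 5, and DESeq2 gave 1579 without WT 4 and 1588 without WT 5. For cS5Alo against WT the range was 0 to 4. DESeq2 gave 89, and 108, 322, 41, 16 and 254 without WT 1 to 5. Limma voom gave 569, 1 and 423 without WT 1, 2 and 5. Without a filter and without WT 5 the count was 6, and within the shared lane it was 9 without WT 3 and 735 without WT 5. The cause was not tested.

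With the replicate number as a block the counts were 1252, 0 and 727. The labels do not state that the numbers pair the samples. Deviations of same-numbered libraries correlated between -0.32 and 0.20, which cannot settle whether they share a litter or a day.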
